A study of Homo sapiens with 8 samples.

Results

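H1975 is a human lung adenocarcinoma cell line that carries a mutated EGFR, the gene of the epidermal growth factor receptor. Its 2 arrays, of 8 in the series, were set against the 6 arrays of A549, H460 and H1650. The question was which genes were high or low in both H1975 arrays relative to all 6 others, that is, which transcripts mark the line rather than the sorted population. The study drew A549 and H460 from lines with a K-Ras mutation and H1650, like H1975, from lines with a mutated EGFR. Viable cells of each line, gated with propidium iodide, had been stained with a Hoechst dye and sorted into the side population (SP), which pumps the dye out, and the main population (MP), which keeps it. One RNA sample of each population was hybridised to 1 array. All 4 lines are cultured tumour lines with no normal lung sample beside them, with 2 lines for each mutated gene. No drug was applied apart from the sorting dyes.

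Cell lines from tumours of 1 histology keep large and stable differences in expression, and 1 axis on which carcinoma lines are placed runs between an epithelial and a mesenchymal state. In the epithelial state cells are held together by cadherins, desmosomes and keratins. In the mesenchymal state they express fibrillar collagens, contractile proteins and the transcription factors SNAI2 and ZEB1, which repress cadherin genes.

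The SP and MP arrays of H1975 resembled each other more than either resembled another line. Over 19775 genes the log2 signals of the H1975 SP and H1975 MP arrays correlated with r = 0.966, against r of 0.886 to 0.891 with the H1650 arrays, 0.868 to 0.872 with A549 and 0.858 to 0.865 with H460. These are correlations across genes, and genes are not independent replicates. A gene was called apart in H1975 when both H1975 arrays lay at least 2-fold above the highest, or at least 2-fold below the lowest, of the 6 other arrays. Signals under 64, a log2 signal of 6, were first raised to that floor, since dim MAS5 signals have no reliable order. By this rule 452 genes (2.29%) were apart and higher in H1975 and 238 (1.2%) were apart and lower. The distance from the H1975 array nearer to the other lines to the nearest array of those lines is called the gap, and its median was 1.57 on the log2 scale for the genes higher in H1975 and 1.62 for the genes lower in H1975. A gap of at least 4-fold was seen for 149 of the genes higher and 85 of the genes lower in H1975. The same rule applied to each other line in turn gave 349 genes higher and 105 lower for A549, 361 higher and 320 lower for H460, and 473 higher and 235 lower for H1650. H1975 was not the most divergent line by the number of genes higher. H1650 held back the most genes, since without its arrays the H1975 counts were 891 higher and 577 lower, against 615 and 481 without H460 and 627 and 341 without A549.

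The arrays of 1 line are not replicates of a line, so the test was made on 4 line means, each the mean of SP and MP. limma compared the H1975 mean with the means of the other 3 lines over 12377 genes. After Benjamini-Hochberg adjustment 0 genes (0%) were higher and 3 genes (0.0242%) were lower in H1975 at an adjusted p under 0.05. At an unadjusted p under 0.05 there were 379 genes higher and 424 lower. With 1 line on 1 side the spread of H1975 itself is unknown, and the test rests on the spread of the other 3 lines. The genes below are therefore described by their values on each array and by whether the arrays overlap. Apart from the 3 genes that passed, each gene named here had an adjusted p of 0.138 or more by limma where it was tested.

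The genes with the widest gaps among those higher in H1975 were near the top of the signal range in H1975 and at or near the floor elsewhere. TDRD9, an RNA helicase of the pathway that silences transposons in germ cells, had log2 signals of 12.34 in H1975 SP and 12.42 in H1975 MP, against 0.67, 3.62 and 5.02 as the lowest, median and highest of the 6 other arrays. All 6 others were under the floor, so TDRD9 was at least 80.8-fold higher in H1975. IL7R, the alpha chain of the interleukin-7 receptor of lymphocytes, read 12.90 and 13.06 in H1975 SP and MP, against 4.38, 6.46 and 7.33 in the other lines. CT83, a cancer-testis antigen, read 11.46 and 11.51 in H1975 SP and MP, against 2.97, 4.03 and 4.75. In these 3 genes the H1975 arrays were 44.0-fold or more above the nearest other array or the floor.

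TAGLN, an actin-binding protein of smooth muscle, had a gap of 42.95-fold, with 13.20 and 12.71 in H1975 SP and MP, against 5.90, 6.71 and 7.29 in the other lines. ANKRD1, an ankyrin repeat protein best known from heart muscle, read 12.60 and 12.63 in H1975 SP and MP, against 4.56, 6.32 and 7.53. CLDN11, a tight junction claudin of myelin and testis, read 11.93 and 11.61 in H1975 SP and MP, against 5.27, 6.08 and 6.64. The remaining 9 of the 15 widest gaps among genes higher in H1975 ran from 36.1-fold to 22.9-fold. They belonged to ARMCX1, EVI2A, the transmembrane collagen COL13A1, the mitochondrial acyltransferase GPAT2, the dehydrogenase DHRS2, the zinc finger genes ZNF880 and ZNF826P, the long noncoding RNA AFAP1-AS1 and CDKN2B. EVI2B, the neighbour of EVI2A in the gene order of chromosome 17, and ARMCX4, the neighbour of ARMCX1 on the X chromosome, were apart and higher as well.

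CDKN2B encodes p15INK4b and CDKN2A, next to it on chromosome 9, encodes p16INK4a and p14ARF, inhibitors of the cell cycle whose locus is often lost in lung cancer. CDKN2B had log2 signals of 10.57 in H1975 SP and 10.51 in H1975 MP, against -1.36, 0.41 and 2.75 in the other lines. This call rests on 1 of 2 probe sets, since the other read under the floor in H1975 too, with 2.18 and 4.57 in H1975 SP and MP, against 1.11 to 3.45, and overlapped. CDKN2A had 9.33 and 9.21 in H1975 SP and MP, against 5.18, 5.95 and 6.65. Both thus read at or near the floor in all 6 other arrays. MTAP, the metabolic gene beside CDKN2A, did not follow them, with 7.66 and 7.46 in H1975 SP and MP, against 8.59, 9.06 and 10.50 in the other lines. MTAP was picked out after its values were seen.

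**Figure D1:**
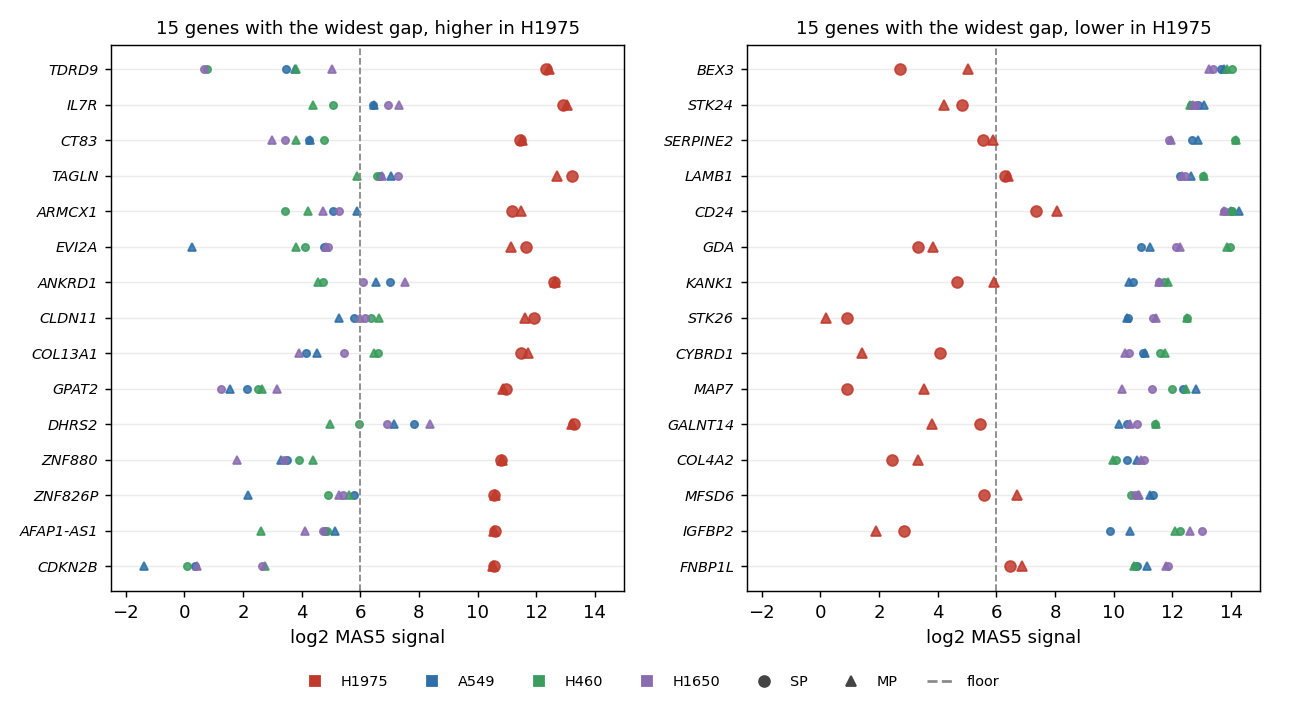
Log2 MAS5 signal (horizontal axis) of the 15 genes with the widest gap higher in H1975 (left) and the 15 lower in H1975 (right), with 1 point for each of the 8 arrays, coloured by line, circles for SP and triangles for MP. The dashed line is the floor of 6. In every row the 2 red H1975 points lie on 1 side of all 6 others, from a gap of 22.9-fold for CDKN2B to 80.8-fold for TDRD9 on the left and from 14.1-fold for FNBP1L to 151-fold for BEX3 on the right.

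The widest gaps of all were on the lower side. BEX3, a small X-linked adaptor of the p75 neurotrophin receptor, had log2 signals of 2.70 in H1975 SP and 5.05 in H1975 MP, against 13.24, 13.71 and 14.03 as the lowest, median and highest of the other 6 arrays. BEX3 was among the brightest transcripts of A549, H460 and H1650, and at least 151-fold lower in H1975. STK24, a kinase of the germinal centre kinase III family also called MST3, read 4.82 and 4.23 in H1975 SP and MP, against 12.61, 12.76 and 13.09. CD24, a small mucin-like surface protein anchored by a lipid, read 7.35 and 8.08 in H1975 SP and MP, against 13.76, 14.01 and 14.28. In limma the H1975 mean differed from the other lines by -9.78 ± 0.43 for BEX3, -8.27 ± 0.40 for STK24 and -6.27 ± 0.30 for CD24 (log2, SE), each with an adjusted p of 0.0381. In addition, 5 other probe sets of CD24 also had both H1975 arrays below all 6 others, and so did the 1 other probe set of STK24 that was not dim (dim probe sets fail the filter on low values used for limma), with 3.81 and 3.92 in H1975 SP and MP and 10.67 to 10.89 elsewhere. BEX3 had no other probe set to compare. None of the 3 passed without the A549 SP array, with only the MP arrays, with signals raised to the floor, or without any 1 of the other 3 lines.

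STK26, the family member also called MST4, was apart and lower too, with 0.92 and 0.19 in H1975 SP and MP, against 10.44, 11.39 and 12.52 in the other lines. STK25, the remaining member, overlapped, with 10.46 and 10.04 in H1975 SP and MP, against 8.68, 9.55 and 10.07, and was picked out after its values were seen. Beside STK24 on chromosome 13, FARP1 was below all 6 others, with 4.77 and 6.76 in H1975 SP and MP, against 7.01 to 9.09, and so were IPO5, with 10.51 and 10.38 against 10.54 to 11.38, and DOCK9, with 9.13 and 9.35 against 9.47 to 10.67. MBNL2 and RAP2A, of the same stretch, overlapped. These neighbours were picked out after their values were seen. Over the 214 genes tested on chromosome 13 the median difference of H1975 from the other lines was -0.47. This was the lowest median of the chromosomes, against 0.04 over all genes tested. Beside BEX3 on the X chromosome, BEX2 was lower in H1975, with 5.76 and 5.44 in H1975 SP and MP, against 7.09 to 10.05. TCEAL3, of the same stretch, went the other way and was above all 6 others, with 11.75 and 11.95 in H1975 SP and MP, against 9.80 to 11.19. TCEAL4, TCEAL9 and MORF4L2 overlapped at log2 signals of 12.18 or more on each array. BEX4, TCEAL1, TCEAL7, TCEAL8 and RAB40A overlapped as well.

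Among the other 12 genes of the lower group the gaps ran from 59.1-fold to 14.1-fold. SERPINE2, a secreted inhibitor of serine proteases, read 5.53 and 5.87 in H1975 SP and MP, against 11.89, 12.76 and 14.17. LAMB1, a laminin chain of basement membranes, read 6.30 and 6.38 in H1975 SP and MP, against 12.26, 12.53 and 13.07. The rest were GDA, KANK1, STK26, CYBRD1, MAP7, GALNT14, COL4A2, MFSD6, IGFBP2 and FNBP1L. Of the 238 genes apart and lower, 95 were under the floor in both H1975 arrays.

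Promoter sequences are shown for 4 of the genes with the widest gaps, picked since their starts differ in CpG content. The sequences are the RefSeq windows from 250 bases before to 50 bases after the start of the gene in GRCh38.p14, 5′ to 3′ on the strand of the gene, with CG dinucleotides in capitals.
TDRD9 (chr14:103928206-103928505, + strand): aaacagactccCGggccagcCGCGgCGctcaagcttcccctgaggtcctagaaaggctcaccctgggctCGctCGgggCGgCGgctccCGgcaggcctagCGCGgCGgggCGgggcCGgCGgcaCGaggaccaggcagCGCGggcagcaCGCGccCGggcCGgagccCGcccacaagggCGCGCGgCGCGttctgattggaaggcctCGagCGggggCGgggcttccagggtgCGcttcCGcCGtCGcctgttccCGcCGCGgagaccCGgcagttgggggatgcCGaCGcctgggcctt
IL7R (chr5:35856641-35856940, + strand): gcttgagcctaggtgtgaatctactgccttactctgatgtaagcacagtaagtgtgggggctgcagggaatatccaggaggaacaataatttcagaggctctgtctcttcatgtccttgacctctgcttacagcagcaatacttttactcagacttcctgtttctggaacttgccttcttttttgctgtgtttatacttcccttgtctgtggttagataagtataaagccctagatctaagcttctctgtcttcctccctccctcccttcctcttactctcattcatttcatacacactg
CDKN2B (chr9:22009256-22009555, - strand): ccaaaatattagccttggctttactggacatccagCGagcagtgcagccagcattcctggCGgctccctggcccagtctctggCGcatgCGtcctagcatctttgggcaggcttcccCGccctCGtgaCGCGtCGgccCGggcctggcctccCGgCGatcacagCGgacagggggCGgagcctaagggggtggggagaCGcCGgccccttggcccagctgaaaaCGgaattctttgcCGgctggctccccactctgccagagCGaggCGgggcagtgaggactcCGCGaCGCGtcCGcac
STK24 (chr13:98577058-98577357, - strand): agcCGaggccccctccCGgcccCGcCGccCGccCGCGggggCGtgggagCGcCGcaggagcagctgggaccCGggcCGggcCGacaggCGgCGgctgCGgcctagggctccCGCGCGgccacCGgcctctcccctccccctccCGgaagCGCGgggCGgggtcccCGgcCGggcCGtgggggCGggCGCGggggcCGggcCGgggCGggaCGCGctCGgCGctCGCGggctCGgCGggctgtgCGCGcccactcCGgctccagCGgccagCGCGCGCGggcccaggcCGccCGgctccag
The TDRD9 window held 41 CG dinucleotides and the STK24 window 51, CDKN2B held 25 and IL7R 0. BEX3, the gene with the widest gap, is not shown, and its window held 7. A window was called CpG-rich at a GC content of at least 50% and an observed over expected CG ratio of at least 0.6. The windows of TDRD9, CDKN2B and STK24 were CpG-rich, and those of IL7R and BEX3 were not. Of the genes apart and higher in H1975, 343 of 452 matched a promoter and 216 of these (63.0%) were CpG-rich. Of the genes apart and lower, 197 of 238 matched and 149 (75.6%) were CpG-rich. Over all genes measured 15384 matched and 9904 (64.4%) were CpG-rich. A gene could be apart and lower only if it read at least 2-fold above the floor on every array of the other lines. The genes measured had no such limit, so the shares of the lower genes and of all genes are not like for like. Whether CpG content goes with being lower in H1975, among genes of similar signal, was not tested. Methylation was not measured.

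Genes of the mesenchymal state made up the gene list with the most members on the higher side. Of 31 measured genes 10 (32.3%) were apart and higher and 0 apart and lower, beside 2.29% and 1.2% of all genes. The median difference of the 28 genes tested was 1.94 on the log2 scale, against 0.04 over all genes tested. COL1A1, the chain of type I collagen, had 12.94 in H1975 SP and 13 in H1975 MP, against 8.85, 9.48 and 9.67 in the other lines. SNAI2, a repressor of E-cadherin, had 12.62 and 11.83 in H1975 SP and MP, against 5.96, 7.53 and 8.92. CTHRC1, a secreted collagen-associated glycoprotein, had 12.76 and 13.21 in H1975 SP and MP, against 5.93, 6.33 and 9.19. Of the other probe sets of COL1A1 that were not dim, 1 overlapped, with 8.16 and 8.06 in H1975 SP and MP, against 7.61 to 8.65, and the rest had both H1975 arrays above all 6 others. By the probe sets used for COL1A1, SNAI2 and CTHRC1 the H1975 arrays were at least 7.55-fold above the nearest other array.

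Other members of the list that were apart and higher were the second chain of type I collagen COL1A2, the collagen cross-linking oxidases LOX and LOXL2, the smooth muscle actin ACTA2, POSTN, TAGLN and the transcription factor ZEB1. ZEB1 read 11.56 and 11.47 in H1975 SP and MP, against 4.28, 9.40 and 10.15 in the other lines. The list did not move as a whole. COL3A1, a fibrillar collagen that usually accompanies type I, read 3.93 and 4.71 in H1975 SP and MP, under the floor, against 5.76, 7.98 and 10.60. TWIST2, another transcription factor of the same state, read 5.46 and 5.62 in H1975 SP and MP, against 6.14, 9.62 and 10.48. N-cadherin (CDH2), vimentin (VIM) and fibronectin (FN1) overlapped the other lines. COL1A1, COL1A2, COL3A1 and POSTN are also markers of fibroblasts. The linear signals of 10 fibroblast markers summed to 9070 to 9475 in H1975, against 1318 to 3852 in the other lines. Of the 10, COL3A1, PDGFRA and FAP were under the floor in both H1975 arrays, and DCN and LUM overlapped the other lines. PDGFRB, a receptor of fibroblasts and pericytes, was above all 6 others, with 6.68 and 6.87 in H1975 SP and MP, against 1.74, 4.57 and 6.28. COL1A1 made up most of the sum in H1975. The part of other cells in these results was not tested.

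Among epithelial junction genes 2 of 30 (6.67%) were apart and lower and 0 higher, beside 1.2% and 2.29% of all genes. The median difference was -1.03. JUP, the plakoglobin of desmosomes and adherens junctions, had 9.01 and 9.71 in H1975 SP and MP, against 12.03, 12.19 and 12.37. DSC2, a desmosomal cadherin, had 4.86 and 5.73 in H1975 SP and MP, against 8.58, 10.76 and 11.40. CDH1 (E-cadherin) lay inside the range of the other lines, with 7.62 and 8.08 in H1975 SP and MP, since H460 read 0.63 to 1.61 and H1650 13.67 to 13.70. Of 16 keratin genes 0 were apart, which is near those shares of all genes.

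The basement membrane showed differences in its parts. COL4A1 and COL4A2, neighbours on chromosome 13 that encode the chains of type IV collagen, were both apart and lower, COL4A1 with 5.46 and 5.11 in H1975 SP and MP, against 8.69 to 11.21, and COL4A2 with 2.43 and 3.32, against 9.97 to 11.03. COL4A5 was apart and lower as well. COL4A1 and COL4A5 were chosen after their values were seen. Among 25 integrin and laminin genes ITGA5 and ITGB3, receptor chains for fibronectin and vitronectin, were apart and higher, and ITGB8 and LAMB1 apart and lower. That is 8% on each side, beside 2.29% higher and 1.2% lower of all genes. ITGA5 had 10.80 and 11.21 in H1975 SP and MP, against 8.37, 8.79 and 9.37. Among 35 extracellular proteases and inhibitors 4 (11.4%) were apart and higher, among them the membrane collagenase MMP14, and 3 (8.57%) apart and lower, among them SERPINE2 and TFPI2. MMP14 had 10.83 and 11.15 in H1975 SP and MP, against 6.48, 7.27 and 8.95.

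Secreted signals were the list with the next highest median. Of 33 chemokine and cytokine genes 5 (15.2%) were apart and higher and 1 (3.03%) lower, beside 2.29% and 1.2% of all genes. The median difference of the 25 tested was 1.44. IL24, a cytokine of the interleukin-10 family, read 10.47 and 11.52 in H1975 SP and MP, against 5.33, 5.64 and 6.11. CX3CL1, the membrane-bound chemokine fractalkine, read 10.51 and 11.04 in H1975 SP and MP, against 3.92, 4.86 and 7.16. CSF1, the growth factor of macrophages, read 11.63 and 12.24 in H1975 SP and MP, against 7.83, 8.23 and 9.40. IL6 and IL32 were apart and higher as well, and CXCL16 was apart and lower, with 7.21 and 7.52 in H1975 SP and MP, against 9.09, 9.66 and 9.90.

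Of 36 genes of TGF-beta and BMP signalling 4 (11.1%) were apart and higher and 0 lower, beside 2.29% and 1.2% of all genes. They were the ligands INHBA, BMP2 and TGFB2 and the BMP effector SMAD9. INHBA, the subunit of activin A, read 11.91 and 11.90 in H1975 SP and MP, against 3.48, 6.77 and 8.0. BMP2 read 12.41 and 11.54 in H1975 SP and MP, against 8.29, 8.67 and 9.50. The median difference of the 32 genes tested was 0.37. With no minimum gap 6 of the 36 were above all 6 others and 4 below, beside 13.8% and 9.13% of all genes. Among 48 Wnt and Notch genes 0 were apart and higher and 3 (6.25%) lower, beside 2.29% and 1.2% of all genes. The 3 were WNT5A, DKK3 and NOTCH3. With no minimum gap 5 of the 48 were above all 6 others and 6 below, near the shares of all genes. WNT5A, a ligand of noncanonical signalling, read 4.28 and 2.71 in H1975 SP and MP, against 7.96, 9.09 and 9.56.

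Targets of NRF2, the transcription factor of the oxidative stress response, were the list with the most members on the lower side. NRF2 is held in check by the adaptor protein KEAP1. Of 37 measured targets 6 (16.2%) were apart and lower and 0 higher, beside 1.2% and 2.29% of all genes. Both H1975 arrays lay below all 6 others, with no minimum gap, for 16 of 37 targets and above for 0, beside 9.13% and 13.8% of all genes. The median difference of the 35 tested was -1.31. GCLM, the regulatory subunit of the enzyme that limits glutathione synthesis, had 11.05 and 10.48 in H1975 SP and MP, against 12.55, 12.77 and 13.30. SLC7A11, the cystine transporter, had 9.82 and 9.37 in H1975 SP and MP, against 11.30, 13.22 and 13.43. NQO1, a quinone reductase, had 12.66 and 12.46 in H1975 SP and MP, against 13.53, 14.04 and 14.14, a gap of 1.83-fold. PIR, TRIM16, EPHX1 and SLC48A1 were the other members apart and lower with GCLM and SLC7A11. Most of these genes still read well above the floor in H1975, so they were less bright than elsewhere rather than off.

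NRF2 binds the antioxidant response element, searched here as TGACNNNGC and its reverse complement GCNNNGTCA in the same promoter windows. The element stood in 3 of 10 windows found for the 16 targets below all 6 others, in 8 of 27 (29.6%) for all measured targets and in 13.6% of 27305 promoters. GCLM and PIR are shown, with the element in capitals. TXNRD1, ME1, GPX2, CBR1 and CYP4F11 held it too and overlapped the other lines.
GCLM (chr1:93909381-93909680, - strand): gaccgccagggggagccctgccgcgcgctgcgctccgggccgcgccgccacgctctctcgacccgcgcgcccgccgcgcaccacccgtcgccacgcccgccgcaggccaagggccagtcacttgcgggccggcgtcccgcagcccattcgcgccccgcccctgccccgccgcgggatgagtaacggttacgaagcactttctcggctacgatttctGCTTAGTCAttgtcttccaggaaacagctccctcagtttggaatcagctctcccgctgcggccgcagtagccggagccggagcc
PIR (chrX:15493284-15493583, - strand): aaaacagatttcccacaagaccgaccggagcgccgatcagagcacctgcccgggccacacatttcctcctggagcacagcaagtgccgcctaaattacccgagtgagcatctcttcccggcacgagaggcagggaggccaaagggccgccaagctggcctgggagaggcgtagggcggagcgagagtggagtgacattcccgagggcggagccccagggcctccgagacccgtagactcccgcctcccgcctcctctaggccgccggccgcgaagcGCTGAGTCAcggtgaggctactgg

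Several metallothioneins, small cysteine-rich proteins that bind zinc and copper, were higher in H1975. In a list of 14 metallothionein and carbonic anhydrase genes, both H1975 arrays lay above all 6 others for MT1E, MT1F, MT1G, MT1H and MT1M, beside 13.8% of all genes. MT1E and MT1M were apart by 2-fold, 14.3% of the list beside 2.29% of all genes. MT1M read 11.83 in H1975 SP and 9.55 in H1975 MP, against 0.08, 2.51 and 5.67 in the other lines. MT1E read 13.28 and 13.13 in H1975 SP and MP, against 9.94, 10.29 and 12.05. These genes are close copies, and probe sets can bind more than 1 of them. CA2, a carbonic anhydrase, was apart and lower, with 0.89 and 5.31 in H1975 SP and MP, against 8.88, 9.64 and 10.32.

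Of 42 measured interferon and antigen presentation genes, 3 (7.14%) were apart and higher, the GTPases MX2 and GBP2 and the immunoproteasome subunit PSMB9, and 1 (2.38%) apart and lower, OAS1. These counts stand beside 2.29% and 1.2% of all genes. Without the minimum gap 11 of 42 were above all 6 others and 3 below, beside 13.8% and 9.13% of all genes, and the median difference of the 40 tested was 0.95 on the log2 scale. GBP2 had 1 further probe set that was not dim, which overlapped, with 9.39 and 9.85 in H1975 SP and MP, against 9.42 at most elsewhere. PSMB9 read 12.13 and 12.40 in H1975 SP and MP, against 9.42, 10.72 and 10.94. OAS1, which senses double-stranded RNA, read 7.38 and 7.79 in H1975 SP and MP, against 9.39, 10.57 and 12.07. The DNA sensors IFI16 and AIM2, neighbours on chromosome 1, were both apart and higher and were chosen after their values were seen. AIM2 had 9.60 and 9.71 in H1975 SP and MP, against 4.09 to 5.15 elsewhere.

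Among 32 lung lineage transcription factors 0 were apart and higher and 2 (6.25%) lower, TBX3 and CEBPA, beside 2.29% and 1.2% of all genes. With no minimum gap 3 were above all 6 others and 4 below, beside 13.8% and 9.13% of all genes. TBX3 read 2.44 and 3.53 in H1975 SP and MP, against 8.49, 9.70 and 10.02. CEBPA, a factor of alveolar and airway differentiation, read 7.09 and 6.86 in H1975 SP and MP, against 8.47, 9.15 and 10.11. FOXA1, a pioneer factor of lung epithelium, was under the floor in H1975, with 2.27 and 3.12 in SP and MP, against 6.34, 7.89 and 9.19, which put it below all 6 others by at least 1.27-fold, measured from the floor. NKX2-1, the defining factor of lung adenocarcinoma, was under the floor on all 8 arrays. Among 33 lung secretory genes, with no minimum gap, 3 were above all 6 others and 1 below, beside 13.8% and 9.13% of all genes. The 1 below was AGR2, a secretory disulphide isomerase of mucous cells. It read 2.95 and 3.20 in H1975 SP and MP, against 7.93, 13.91 and 14.04. ABCA3 was above all 6 others by less than 2-fold, with 10.19 and 10.19 in H1975 SP and MP, against 6.29, 7.74 and 9.27.

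Of 25 HOX genes 3 (12.0%) were apart and lower and 1 (4.00%) higher, beside 1.2% and 2.29% of all genes. HOXB7 read 5.30 and 5.76 in H1975 SP and MP, against 9.54, 11.02 and 11.39. HOXB3 read 5.30 and 5.79 in H1975 SP and MP, against 8.25, 9.72 and 10.26. HOXB2 and HOXB6, of the same cluster, were also below all 6 others, by at least 1.84-fold and 1.18-fold. These gaps are measured from the floor, since both genes were under it in H1975, and are lower bounds. HOXD8 was apart and lower, and HOXD4 was apart and higher. With no minimum gap 2 of the 25 were above all 6 others and 6 below, beside 13.8% and 9.13% of all genes.

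**Figure D2:**
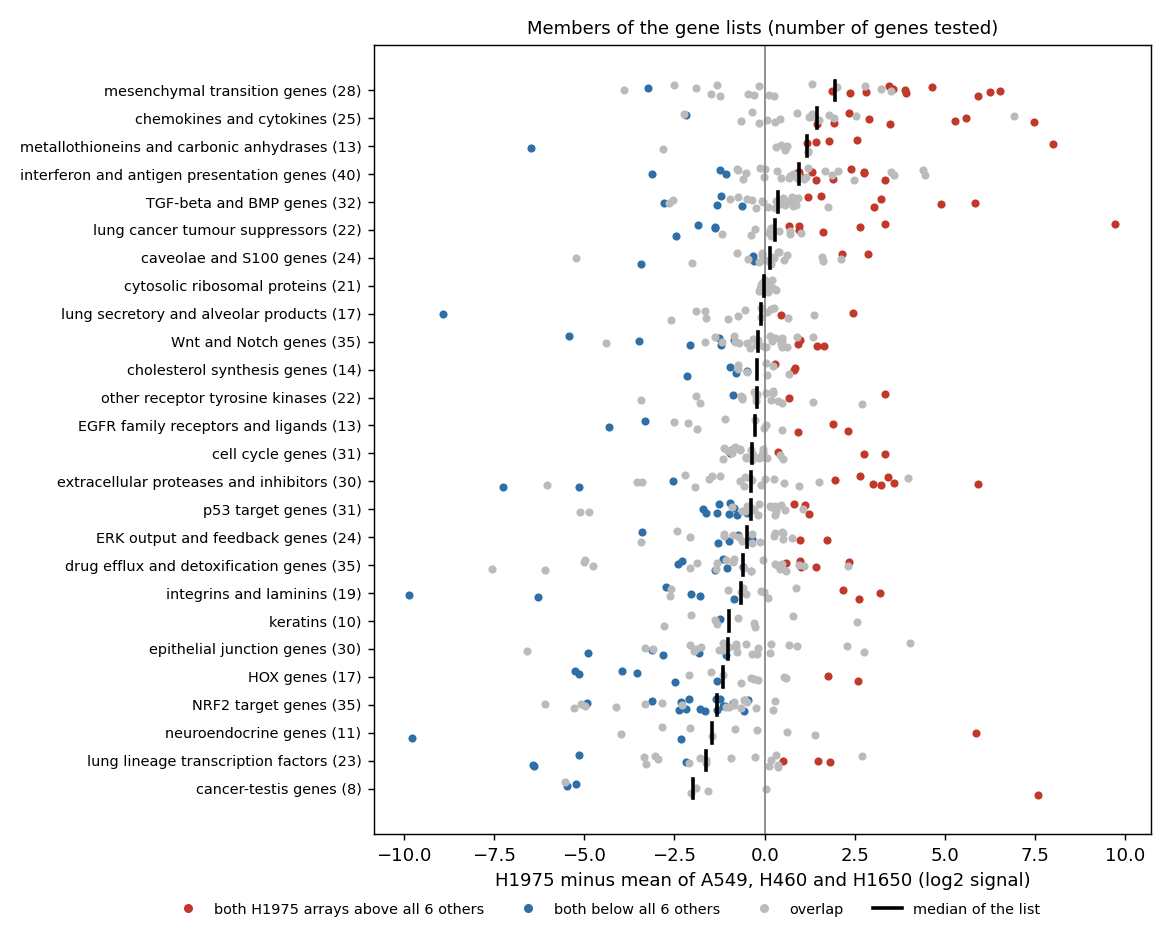
Difference of the H1975 mean from the mean of A549, H460 and H1650 (log2 signal, horizontal axis) for the tested members of 26 gene lists, 1 point per gene, with the number tested in parentheses and the median of each list as a black bar. Red points have both H1975 arrays above all 6 others and blue points both below. Mesenchymal genes had the highest median, 1.94, cancer-testis genes the lowest, -1.97 over 8 genes, and ribosomal proteins lay at -0.02.

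EGFR, the receptor whose gene is mutated in H1975, did not stand apart there. It read 10.53 in H1975 SP and 10.71 in H1975 MP, against 10.17, 11.64 and 13.16 in the other lines, and the 2 highest values, 13.16 and 13.11, were those of H1650 SP and MP. Of 15 EGFR family receptors and ligands 0 were apart in either direction, beside 2.29% higher and 1.2% lower of all genes. ERBB3 was under the floor in H1975, with 5.04 and 5.12 in SP and MP, against 6.49, 8.75 and 9.95. BTC, the ligand betacellulin, read 4.16 and 2.40 in H1975 SP and MP, against 6.77, 7.71 and 8.35. HBEGF, another ligand, was above all 6 others, with 12.03 and 11.51 in H1975 SP and MP, against 8.75, 9.80 and 10.91. The 2 ligands thus lay on opposite sides of the other lines. Among 25 genes driven by ERK signalling DUSP6, a phosphatase that shuts ERK off, was the 1 gene apart (4%), and lower, with 5.54 and 6.34 in H1975 SP and MP, against 7.72, 9.68 and 10.45. With no minimum gap 2 of the 25 were above all 6 others and 5 below, beside 13.8% and 9.13% of all genes. The 2 above were IER3 and EGR1. IER3 read 13.88 and 13.79 in H1975 SP and MP, against 12.26, 12.97 and 13.32. EGR1 read 12.68 and 12.80 in H1975 SP and MP, against 9.55, 11.52 and 11.97. Of 38 other receptor tyrosine kinases INSR, the insulin receptor, was the 1 gene apart and higher (2.63%, near the share of all genes). It read 10.84 and 11.09 in H1975 SP and MP, against 6.59, 7.50 and 8.68.

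Of 34 p53 targets 2 (5.88%) were apart and lower, DDB2 and PHLDA3, and 0 higher, beside 1.2% and 2.29% of all genes. Without the minimum gap 9 of 34 were below all 6 others and 3 above, beside 9.13% and 13.8% of all genes. DDB2, a sensor of ultraviolet DNA damage, read 8.59 and 8.64 in H1975 SP and MP, against 9.70, 10.33 and 10.88. MDM2, the ubiquitin ligase of p53, read 10.30 and 10.55 in H1975 SP and MP, against 11.32, 11.63 and 12.06. Among 25 lung cancer tumour suppressors CDKN2A and CDKN2B (8%) were apart and higher and the DNA repair enzyme MGMT (4%) apart and lower. Without the minimum gap 7 of the 25 were above all 6 others and 4 below. RB1, the retinoblastoma protein, was below all 6 others by less than 2-fold, with 9.75 and 9.67 in H1975 SP and MP, against 10.74, 11.06 and 11.40. Of 32 cell cycle genes 2 (6.25%) were apart and higher, both inhibitors, CDKN2A and CDKN1C, and of 21 ribosomal protein genes 0 were apart.

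Of 25 measured cancer-testis genes, normally confined to germ cells, 1 (4%) was apart and higher and 1 (4%) lower, beside 2.29% and 1.2% of all genes. With no minimum gap 1 was above all 6 others and 2 below, beside 13.8% and 9.13% of all genes. The median difference of the 8 tested was -1.97. CT83 was apart and higher as given above. MAGEA12 was apart and lower, with 3.87 and 4.71 in H1975 SP and MP, against 8.23, 8.56 and 12.57. MAGEA6 was below all 6 others, with 3.13 and 4.25 in H1975 SP and MP, against 6.78, 9.12 and 11.65. A placental group was seen in the pregnancy-specific glycoproteins, which were chosen after their values were seen. PSG1, PSG2, PSG3, PSG4, PSG6, PSG7 and PSG9 were each apart and higher. PSG5, measured and next to PSG4 in the gene order, was not. PSG4 read 11.48 and 11.20 in H1975 SP and MP, against 3.05 to 7.72 elsewhere. PSG2 read 10.01 and 9.92 in H1975 SP and MP, against 4.09 to 5.73. These genes lie side by side on chromosome 19 and are nearly identical in sequence, so a signal may be shared between them.

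In the remaining lists the genes apart are read beside 2.29% higher and 1.2% lower of all genes. The counts higher and lower were 1 and 1 of 18 neuroendocrine genes (5.56% each, SCG5 higher and BEX3 lower), 0 and 1 of 33 lung secretory genes (3.03%, AGR2), 1 and 0 of 27 caveolae and S100 genes (3.70%, CAVIN4), 0 and 0 of 39 drug efflux and detoxification genes, and 0 and 0 of 15 cholesterol synthesis genes. ABCG2, the transporter that pumps out the sorting dye, was below all 6 others, with 10.06 in H1975 SP and 8.89 in H1975 MP, against 10.75, 11.84 and 12.71.

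The genes apart and higher were unevenly spread over the chromosomes. Of 1320 genes measured on chromosome 19, 103 (7.80%) were apart and higher in H1975, against 347 of 18366 (1.89%) on the other chromosomes. The next highest share was 22 of 611 (3.60%) on chromosome 14. The share of genes apart and lower on chromosome 19, 1.06%, was near that of all genes. Chromosomes 20 and 22 had 0 genes apart and lower, and chromosome 14 had 1. For the other lines the same count on chromosome 19 was 16 genes for A549, 4 for H460 and 33 for H1650.

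**Figure D3:**
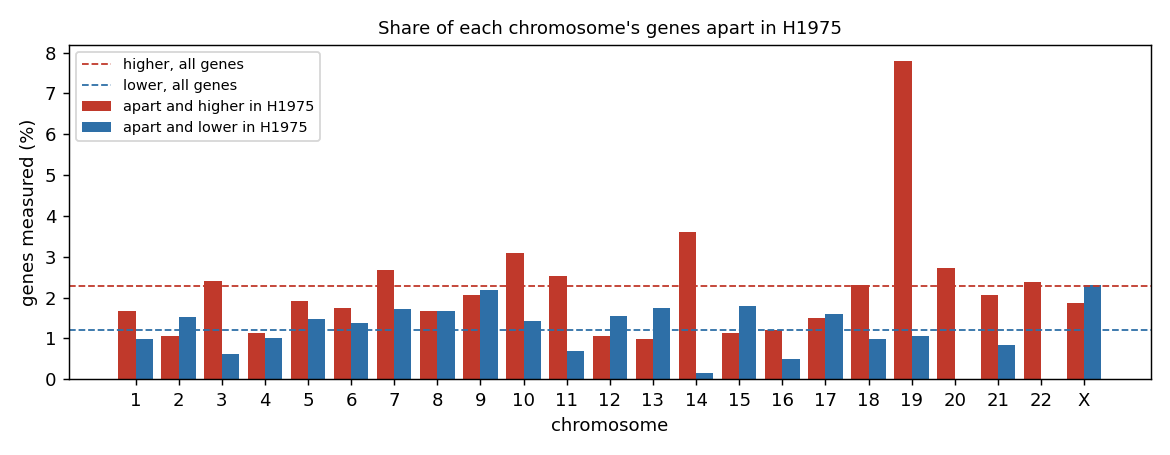
Share of the genes measured on each chromosome (percent) that were apart and higher (red) or apart and lower (blue) in H1975, with the share over all genes as dashed lines, 2.29% and 1.2%. Chromosome 19 stands out on the higher side at 7.80%.

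Chromosome 19 is rich in genes of the ZNF family, which encode zinc finger proteins, many of them repressors of transposons. Of 234 ZNF genes on it 42 (17.9%) were apart and higher in H1975, and of its 1086 other genes 61 (5.62%) were. On the other chromosomes 11 of 269 ZNF genes (4.09%) were apart and higher. ZNF880 had 10.81 and 10.85 in H1975 SP and MP, against 1.79, 3.44 and 4.39 in the other lines. Its other probe set overlapped, with 7.48 and 7.85 in H1975 SP and MP, against 7.55 and 7.55 in H1650 SP and MP and 1.59 to 4.23 in A549 and H460. ZNF826P, a ZNF pseudogene, had 10.56 and 10.59 in H1975 SP and MP, against 2.18, 5.34 and 5.80. In A549, H460 and H1650 0, 1 and 1 of the 234 were apart and higher.

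Along the chromosome, in windows of 60 genes in the order of their starts in RefSeq, the genes other than ZNF genes formed different stretches. A few genes of the KIR family, which RefSeq places on other scaffolds of the chromosome, fall into the first window by their starts there, and KIR2DL2 opens it. In the first 9 windows, up to ZNF708, the median difference of H1975 from the other lines over all genes tested, ZNF genes included, lay between 0.36 and 1.57 in each window. Over these 9 windows 305 of 346 tested genes other than ZNF genes (88.2%) were higher in H1975 than the mean of the other lines, with a median of 0.83. In the remaining 13 windows 126 of 350 (36.0%) were higher, with a median of -0.30. The ZNF genes were higher in H1975 in both stretches, 45 of 45 tested with a median of 2.33 in the first 9 windows and 119 of 137 with a median of 1.37 in the rest. The place of the split was chosen after the values were seen. For the other lines the median of genes other than ZNF genes in the first 9 windows was -0.31 for A549, -0.25 for H460 and -0.23 for H1650. In the remaining windows it was 0.48 for A549, -0.60 for H460 and 0.44 for H1650, so that medians away from 0 were seen in each line. The ZNF genes of the remaining windows were also above the mean of the other lines in H1650, 104 of 137 with a median of 0.51. The values of the 4 lines are not independent, since each line is set against the mean of the others. Copy number was not measured.

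**Figure D4:**
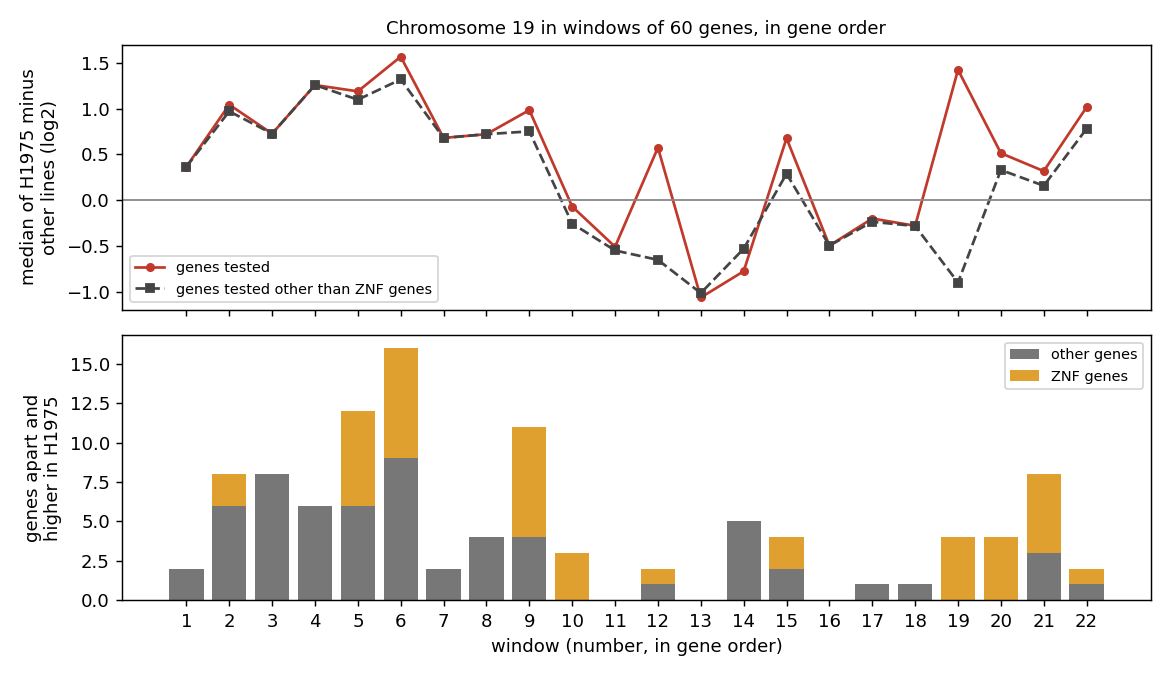
Chromosome 19 in 22 windows of 60 genes in gene order (horizontal axis). The upper panel gives the median difference of H1975 from the mean of the other lines (log2 signal) for genes tested and for those other than ZNF genes, and the lower panel the number of genes apart and higher. Windows 1 to 9 lie above 0 in both lines of the upper panel, while from window 10 the genes other than ZNF genes are mostly below 0.

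The difference between SP and MP was compared between H1975 and the other lines to see whether a line difference held in both populations. By limma on the SP minus MP ratio of each line 1 of 12377 genes (0.00808%) passed an adjusted p under 0.05, and 584 had an unadjusted p under 0.05. The gene was ITGB8, with log2 signals of -2.0 in H1975 SP and 4.96 in H1975 MP, against 9.25 to 13.11 elsewhere, and an adjusted p of 0.0409. Both H1975 values are under the floor. With signals raised to the floor 0 genes passed. BEX3 and CA2, also dim in H1975, had adjusted p of 0.0639 each. The genes of the study's SP signature that are reported here overlapped the other lines in H1975. TOP2A read 11.61 in H1975 SP and 10.03 in H1975 MP, against 10.50, 11.87 and 12.44, and CDK1 read 11.80 and 11.20, against 11.10, 12.86 and 13.33. AURKB read 10.23 and 8.88 in H1975 SP and MP, against 8.83, 9.65 and 10.16, and NCAPH 9.49 and 7.96, against 8.32, 9.19 and 9.72.

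Markers of other cell types were read on the same arrays. The epithelial markers KRT8, KRT18 and KRT19 read 11.86 to 13.67 in H1975, and EPCAM 8.68 to 9.18. Each of these and CDH1, given above, overlapped the other lines. The linear signals of these 5 epithelial markers summed to 25062 to 26182 in H1975, against 36843 to 63933 in the other lines. The lung markers NKX2-1 and SCGB1A1 were under the floor on all 8 arrays. The other 3 lung markers, the surfactant genes SFTPB and SFTPC and the protease NAPSA, overlapped the other lines, with 7.34 and 7.77 for SFTPB, 7.75 and 7.97 for SFTPC and 6.46 and 6.22 for NAPSA in H1975 SP and MP. SFTPB and SFTPC were above the floor on all 8 arrays. The linear signals of 12 blood markers summed to 1069 to 1286 in H1975, against 583 to 1044, with 6 of the 12, PTPRC among them, under the floor in both H1975 arrays and CD14 above all 6 others. The 8 endothelial markers summed to 436 to 509 in H1975, against 246 to 398, with 6 of the 8, CDH5 and VWF among them, under the floor in both H1975 arrays. In bulk RNA fewer cells of a type and less RNA per cell cannot be told apart. The 3′ minus 5′ log2 signal of ACTB, a sign of RNA quality, was 0.36 to 0.52 in H1975, against 0.23 to 0.65, and that of GAPDH -0.18 to -0.11, against -0.14 to -0.03.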

How the data were processed

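Expression was measured on Affymetrix Human Genome U133 Plus arrays, 1 for the SP and 1 for the MP of each of 4 lines. The authors deposited log2 MAS5 signals, with GCOS 1.4 and MAS5 listed in the submitters' processing notes. The 2% trimmed mean of the linear signal was 500.1 on each array and the median log2 signal 5.92 to 6.29. Neither detection calls nor scan dates were used here, and the number of arrays limits the precision. Lines came from the labels.

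Of 54675 probe sets, 62 were controls, 41097 had 1 gene symbol in the platform annotation, 1801 several and 11777 none. The probe set with the greatest mean over the 8 arrays stood for a gene (19775 genes). RefSeq changed 0 symbols, placed 19734 genes and gave the promoters. The apart rule, with a floor of 6 and a gap of 1 on the log2 scale, is a description. limma 3.58.1 in R 4.3.3 (lmFit, eBayes with trend, Benjamini-Hochberg) was fitted to 4 line means over genes with a log2 signal of at least 7 on at least 2 arrays, with 2 residual degrees of freedom. It was tested on simulated data. SP and MP of a line share the line, so averaging them pairs the populations. Named were the 15 genes with the widest gap in each direction, up to 4 members of each of 29 lists by p, EGFR and the study's 5 signature genes. One of these 5 is not reported here. The members and lists were chosen with earlier results of these data known. Alternatives changed the floor, gap, filter, normalization, gene summary, populations, lines and arrays used.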

Additional observations from a re-analysis of the deposited data

Results flagged for a closer look

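Among 141 genes screened, 4 had 1 of the 6 other arrays far from its fellows by Dixon's criterion. By chance this criterion marks about 1 in 20 groups of 6 independent values. The 6 arrays are pairs from 3 lines, so that rate need not hold here. The 4 genes were EVI2A, where A549 MP read 0.28, ZNF826P, where A549 MP read 2.18, COL1A1, where H460 MP read 8.85, and COL1A2, where H1650 MP read 2.56 (log2 signal). Each of these arrays was the lowest of the 6, on the side away from H1975, so none set the gap of its gene.

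The SP minus MP difference of ITGB8 was -6.96 in H1975 on the log2 scale, and differed from that of the other 3 lines by -6.72 (limma, adjusted p of 0.0409). Both H1975 values lay under the floor.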

How the results depend on the processing

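With a gap of 4-fold 149 genes were apart and higher and 85 lower in H1975, with no minimum gap 2728 and 1806, and over all probe sets other than controls 879 and 454. Only the SP arrays gave 720 and 384, and only the MP arrays 705 and 404. Without H460 there were 615 and 481, and without H1650 891 and 577. The mean over all probe sets of a gene gave 338 and 156, which held 308 of the 452 and 133 of the 238 genes. Quantile normalization gave 452 and 252, of which 438 and 231 were the same genes. Leaving out 1 array at a time gave 470 to 596 genes higher and 251 to 314 lower.

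In limma the count lower, 3, was 0 with the floor of 6, with a pseudocount of 64, with a filter on the mean signal, with no filter, with eBayes without trend, with only the MP arrays, and without A549, H460 or H1650, and 1 with the mean over probe sets. The fit of the 8 arrays with line as a random block and population (SP or MP) as a fixed term gave 2 higher and 19 lower. The 19 held CD24 and STK24 but not BEX3. The 8 arrays taken as independent, which the within-line correlation of 0.867 does not allow, gave 352 and 378. Leaving out 1 array gave 0 to 3 lower and 0 higher, and the 0 came without the A549 SP array. For the SP minus MP comparison, alternatives added after seeing the data gave 0 genes with the floor of 6, 1 without A549, 0 without H460 and 2 without H1650. The cause of these differences was not tested.

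Over 141 named genes and 3161 values, 3031 kept their sign and their side of the threshold, 33 (of BEX3, CD24 and STK24) no longer passed, 84 newly passed when the 8 arrays were fitted with a random block or as independent, and 13 in 4 genes changed sign, all of genes that overlapped the other lines. With only the SP arrays the difference of AURKB was 0.66 and that of NCAPH 0.33 on the log2 scale. Leaving out 1 array at a time gave -0.73 to 0.62 for AURKB, -1.13 to 0.40 for NCAPH and -0.107 to 0.201 for HBB. HBB was -0.033 with only the MP arrays, -0.114 without H460 and -0.054 without H1650, and CD79A was -0.029 without A549.

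With no detection calls, signals under the floor set only a bound. By the rule itself, H1650, the other line with a mutated EGFR, does not share the genes called apart. How far further lines with a mutated EGFR would share them cannot be shown here.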
